A study of Mus musculus with 9 samples.

Results

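The tumour necrosis factor (TNF) superfamily of ligands and the TNF receptor superfamily were examined in RNA-seq libraries of the murine cell line T15. Members were taken by name as protein-coding genes whose symbol starts with Tnfsf or Tnfrsf directly followed by a digit, together with Fas, Fasl, Tnf, Lta, Ltb, Cd40, Cd40lg, Cd27 and Cd70. This gave 40 genes of the 35288 listed, 17 ligands and 23 receptors, and the naming rule itself uses no expression value. T15 is a peripheral T-cell lymphoma line that lacks Smarcb1, a core subunit of the SWI/SNF chromatin remodelling complex. The mouse it came from is not given in the sources used here. The 9 libraries fall into 3 groups of 3. SAHA (vorinostat), an inhibitor of histone deacetylases, was given at 1 µM over 72 h. Smarcb1-RE cells carry a lentiviral, doxycycline (Dox) inducible Smarcb1 cDNA in the plasmid pInd20 and were selected with G418 and induced with Dox at 0.5 µg/µl for 72 h. The labels mention a vehicle and a control plasmid, without naming the one given to the control cells, and the study's own text and captions differ on this. Lentiviral transduction, G418 and Dox therefore cannot be told apart from Smarcb1 itself wherever Smarcb1-RE is set against control. The same holds against SAHA, since the SAHA cells are not described as transduced, selected or given Dox. Where SAHA is set against control, anything given to the control cells alone cannot be told apart from SAHA either. The study describes several stable clones of re-expressing cells, and the labels do not say whether the 3 Smarcb1-RE libraries are of 1 clone. It describes biological replicates, and the p-values measure the spread between these samples.

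TNF superfamily ligands are mostly trimeric membrane proteins, some of which are shed, and they act on receptors of neighbouring cells or of the same cell. Receptors with a cytoplasmic death domain, such as Fas and the TRAIL receptor Tnfrsf10b, can recruit the adaptor Fadd and caspase-8. Many receptors without one recruit TRAF proteins, which lead to the NF-kB and MAP kinase pathways. In T cells, Tnfrsf4 (OX40), Tnfrsf9 (4-1BB), Tnfrsf18 (GITR), Tnfrsf25 (DR3) and Cd27 are costimulatory receptors. Tnfrsf8 (CD30) is an activation antigen of lymphocytes and a diagnostic marker of anaplastic large cell lymphoma.

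Levels are given as rounded counts or as CPM (counts scaled to a common library size with TMM factors), and genes were called at an adjusted p under 0.05 (edgeR's quasi-likelihood test with all 9 libraries in 1 fit, Benjamini-Hochberg adjustment over the 13697 genes that passed a filter on low counts). Library totals ranged from 20900424 to 24941408, and the common biological coefficient of variation was 5.24%. Control replicate 1 stood apart, with a chi-square per gene of 12.5 and 14.1 against the other control libraries, where the other replicate pairs lay between 2.07 and 4.55. Smarcb1 had 2, 5 and 8 counts in control, 7, 13 and 3 with SAHA and 151, 147 and 142 in Smarcb1-RE, and the groups of control and Smarcb1-RE did not overlap. Of 11 T-cell markers, Cd3d, Cd3e, Cd3g, Cd8a, Cd28, Lck and Ptprc were tested, and the list summed to between 2947 and 2982 CPM in control, 3808 and 3849 with SAHA, and 4155 and 4223 in Smarcb1-RE. Ptprc alone had a mean of 641 CPM in control, 1007 with SAHA and 1641 in Smarcb1-RE. In Smarcb1-RE, Ptprc, Lck, Cd28 and Cd8a were called higher, Cd3e and Cd3g lower, and Cd3d was not called. In SAHA, Ptprc, Cd28, Cd8a and Cd3g were called higher, Cd3d lower, and Cd3e and Lck were not called. Cd4 was at 0 in every library, Cd2 and Cd5 had at most 3 counts and Thy1 at most 6. All 7 myeloid markers failed the filter, and their summed level was at most 0.765 CPM. The 6 B-cell markers summed to between 92.7 and 95.9 CPM in control, 101.0 and 112.0 CPM in SAHA and 155.0 and 163.0 CPM in Smarcb1-RE. Ebf1 accounted for most of this sum, Pax5 and Ms4a1 also passed the filter, and Cd79a and Cd79b had at most 4 counts. The 4 NK-cell markers summed to between 424.0 and 554.0 CPM over all libraries, nearly all of it Nkg7, with Ncr1 and Klrb1c at no more than 1 count. The 4 dendritic markers summed to at most 0.51 CPM in control, 3.8 in SAHA and 1.47 in Smarcb1-RE, which was almost only Zbtb46. The 5 stromal and endothelial markers summed to between 108.0 and 154.0 CPM, nearly all of it Pecam1. The part of these marker levels in the results was not tested. In bulk libraries, fewer cells that express a gene and less RNA per cell cannot be told apart.

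Neighbouring family genes that moved apart are shown first by their promoters, since in Smarcb1-RE they shared a locus but not a direction. Ltb, Tnf and Lta lie side by side on chromosome 17, with 3.06 kb between Ltb and Tnf and 1.16 kb between Tnf and Lta, and Tnfrsf1b and Tnfrsf8 lie 20.3 kb apart on chromosome 4. The sequences below are from RefSeq (GRCm38.p6) and are the 250 bases that end just before the gene's start, 5′ to 3′ on the gene's strand, with Ltb shortened to 182 bases so that no transcribed base of GENCODE M21 is shown. Capitals mark matches to the NF-kB consensus.
Ltb, chr17:35194257-35194438, plus strand: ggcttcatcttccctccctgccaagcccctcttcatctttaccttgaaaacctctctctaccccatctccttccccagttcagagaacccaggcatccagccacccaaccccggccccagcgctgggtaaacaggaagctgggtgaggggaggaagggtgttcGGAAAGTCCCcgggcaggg
Tnf, chr17:35202008-35202257, minus strand: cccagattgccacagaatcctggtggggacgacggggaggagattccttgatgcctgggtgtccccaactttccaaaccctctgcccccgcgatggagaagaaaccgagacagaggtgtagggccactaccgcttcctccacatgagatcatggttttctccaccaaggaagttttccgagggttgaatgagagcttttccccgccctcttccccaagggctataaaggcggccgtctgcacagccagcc
Lta, chr17:35205352-35205601, minus strand: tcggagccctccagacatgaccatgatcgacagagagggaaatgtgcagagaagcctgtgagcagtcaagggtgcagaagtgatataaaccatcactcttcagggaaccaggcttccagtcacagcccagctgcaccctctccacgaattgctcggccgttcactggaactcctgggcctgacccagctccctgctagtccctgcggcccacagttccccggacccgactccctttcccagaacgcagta
Tnfrsf1b, chr4:145246871-145247120, minus strand: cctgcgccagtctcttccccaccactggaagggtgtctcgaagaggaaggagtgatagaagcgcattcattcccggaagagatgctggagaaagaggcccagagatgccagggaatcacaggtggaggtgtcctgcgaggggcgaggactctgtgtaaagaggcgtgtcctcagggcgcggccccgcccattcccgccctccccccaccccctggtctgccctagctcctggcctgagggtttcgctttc
Tnfrsf8, chr4:145315165-145315414, minus strand: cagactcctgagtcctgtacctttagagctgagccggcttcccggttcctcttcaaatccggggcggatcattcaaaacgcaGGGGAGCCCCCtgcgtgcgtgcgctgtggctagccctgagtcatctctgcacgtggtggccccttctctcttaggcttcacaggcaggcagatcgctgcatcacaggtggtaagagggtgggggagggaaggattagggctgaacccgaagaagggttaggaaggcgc

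An entry was found for 30 of the 40 members and for 16 of the 20 that were tested. The search used both strands of the 250 bases before each RefSeq start. For some tested members this start lies inside the GENCODE M21 gene. The windows of Tnfrsf9 (start 5593 bases in) and Tnfrsf14 (486 bases in) lay wholly within the gene. Those of Tnfrsf18, Ltb, Tnfsf10 and Tnfrsf12a lay in it in part. The NF-kB consensus was found for 2 of these 16, Ltb, where it began 87 bases before the start, and Tnfrsf8, where 2 overlapping matches began 168 and 167 bases before it. Over all 32851 promoters of the same length, 7.25% held this motif. The AP-1 motif TGANTCA was found for Tnfrsf8 and Fas among the 16, against 6.75% of all promoters, and the RUNX motif TGTGGT for 2 of 16, against 14.0%. The GC box GGGCGG was found for 8 of 16, against 32.7% of all promoters. Tnf, Tnfrsf1b and Tnfrsf8 were among the 8, and so was Tnfrsf9, whose window lay within the gene. Ltb and Lta held none. CpG dinucleotides numbered 10 in the Tnf window, 9 in Lta, 6 in Ltb and 12 each in Tnfrsf1b and Tnfrsf8, where the median of all promoters was 6. Cd40, Tnfrsf10b, Tnfrsf22 and Tnfsf9 had no entry in the table.

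Few ligands and most receptors were detected. The filter on low counts was passed by 20 members, 5 of 17 ligands (Ltb, Tnf, Tnfsf10, Tnfsf9 and Lta) and 15 of 23 receptors. Of the 20 that failed, 8 were at 0 in every library, namely Cd40lg, Cd70, Tnfsf11, Tnfsf12, Tnfsf13, Tnfsf18, Tnfrsf1a and Tnfrsf11b. A count of 0 allows a level of up to 3 counts, or 0.123 to 0.133 CPM depending on the library, which covers counting error only. Another 9 had at most 3 counts in any library: Fasl, Tnfsf4, Tnfsf8, Tnfsf14, Tnfsf15, Cd27, Tnfrsf13b, Tnfrsf17 and Tnfrsf26. Tnfsf13b (BAFF) had at most 2 counts except in Smarcb1-RE replicate 2, which had 5. Tnfrsf11a (RANK) had 8, 6 and 12 counts in control, 5, 7 and 10 with SAHA and 5, 6 and 6 in Smarcb1-RE, and its groups overlapped. Tnfrsf21 (DR6) had 5, 7 and 8 counts in control, 6, 3 and 2 with SAHA and 0, 0 and 1 in Smarcb1-RE (neither gene passed the filter; without a filter Tnfrsf21 was called lower in Smarcb1-RE, with adjusted p = 0.00174 against control and 0.0194 against SAHA, and Tnfrsf11a was called in no comparison). The heat map of all members shows the 5 ligands and 15 receptors that were tested beside mostly empty rows. In control, Tnfrsf11a and Tnfrsf21 had counts like those of the tested members Lta and Tnfrsf23.

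**Figure D1:**
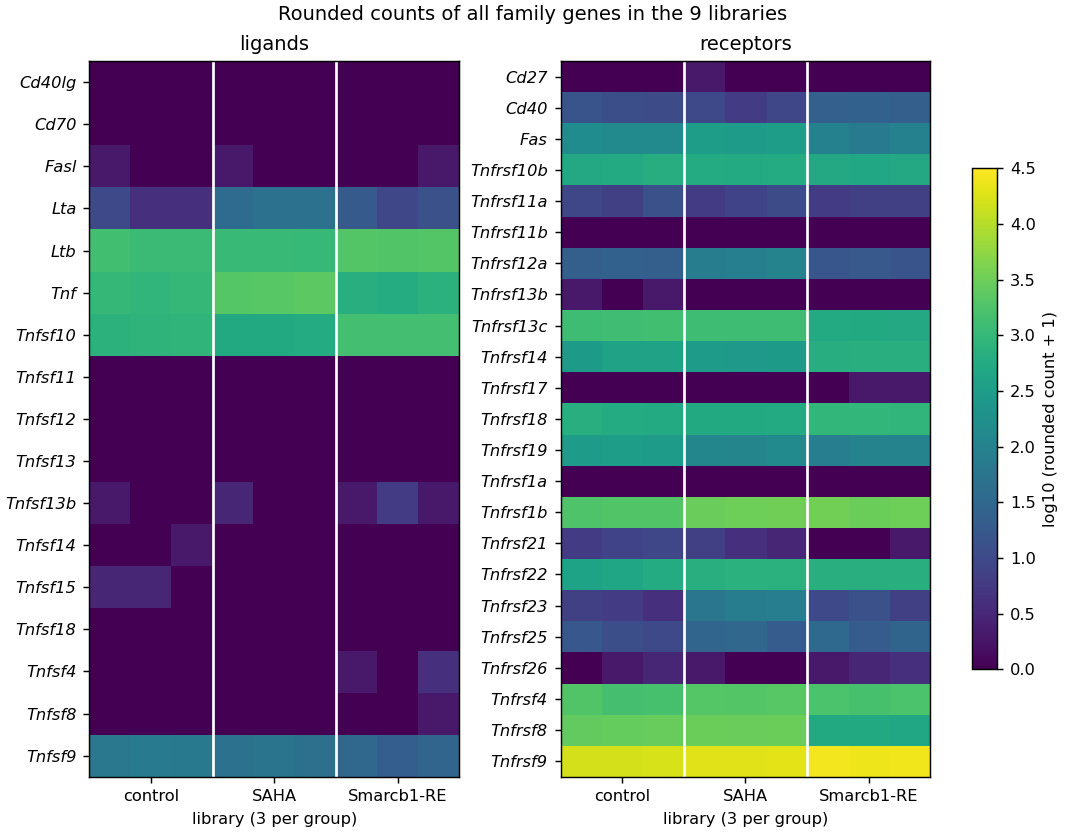
Rounded counts of the 17 ligands and 23 receptors (rows) in the 9 libraries (columns, 3 per group), coloured by log10 of the count plus 1. Tnfrsf9 is the brightest row in every library, Tnfrsf8 darkens in the 3 Smarcb1-RE libraries, and 12 of the 17 ligands have at most 5 counts anywhere.

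Tnfrsf9, the receptor for 4-1BB ligand, carried more of the family's signal than all other members together. Its counts were 15936, 16025 and 17101 in control, 20214, 20049 and 20994 with SAHA and 26178, 24387 and 25238 in Smarcb1-RE, and no 2 groups overlapped. It made up 54.5% to 55.9% of the family's normalized level in control, 55.8% to 56.0% in SAHA and 65.8% to 66.1% in Smarcb1-RE. All members together summed to between 1225 and 1257 CPM in control, 1563 and 1619 with SAHA and 1640 and 1689 in Smarcb1-RE. Per kilobase of exon, the level of Tnfrsf9 in control was 252.0 ± 5.47 CPM (SD, n = 3), followed by Tnfrsf4 with 51.0 ± 7.48 and Ltb with 34.7 ± 4.0. Tnfrsf8 with 32.9 ± 0.543, Tnfrsf13c with 27.2 ± 0.455, Tnf with 24.7 ± 1.2, Tnfrsf1b with 20.6 ± 0.35, Tnfrsf18 with 16.9 ± 1.77 and Tnfrsf14 with 10.3 ± 1.74 CPM per kilobase came next, and the other 11 tested members lay at or below 6.65. Ltb and Tnfrsf8 lay within the SD of Ltb, so that their order in control is not resolved. In Smarcb1-RE, Ltb ranked 2nd with 55.2 ± 0.549 CPM per kilobase, Tnfrsf1b 4th with 36.6 ± 1.73 and Tnfrsf8 11th with 6.51 ± 0.288. In SAHA, Tnf ranked 3rd with 57.5 ± 2.35 CPM per kilobase.

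**Figure D2:**
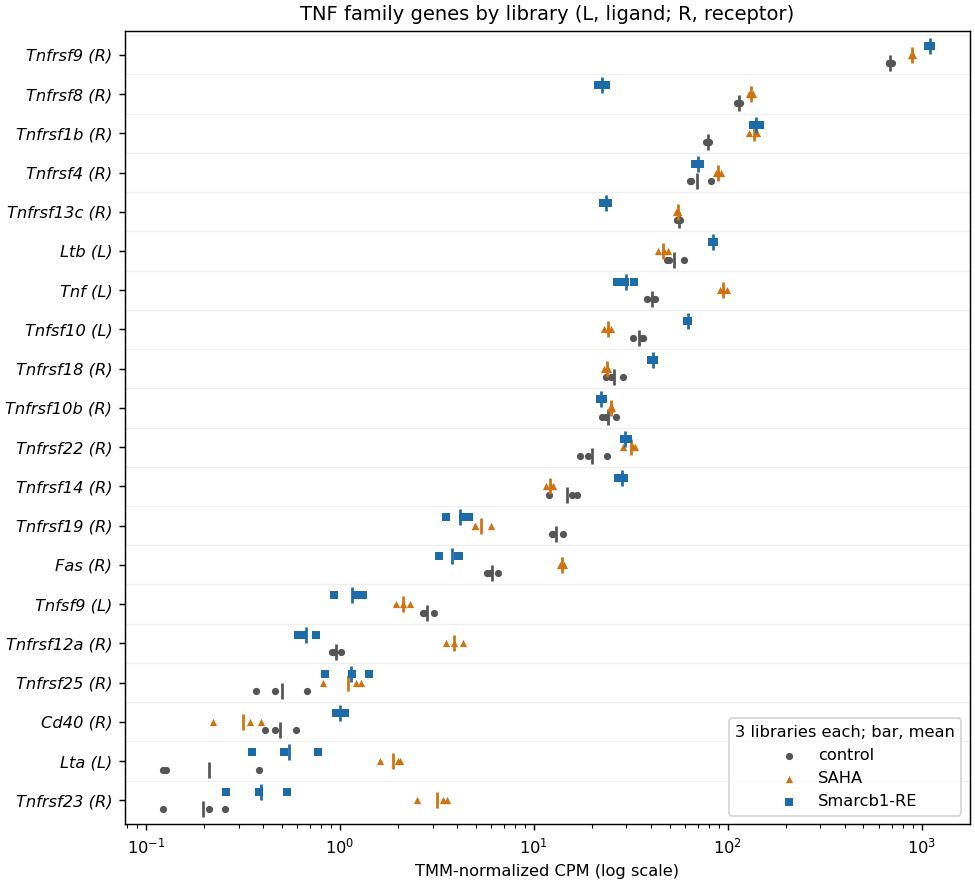
TMM-normalized CPM (log axis) of the 20 tested members in each library, ordered by their mean in control, with control as circles, SAHA as triangles, Smarcb1-RE as squares and the group mean as a vertical bar. Tnfrsf9 is highest throughout, at 1079 to 1117 CPM in Smarcb1-RE, and Tnfrsf8 drops to between 21.5 and 23.5 CPM in Smarcb1-RE from between 112.0 and 116.0 in control.

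Both treatments changed most of the detected members, as they did most genes. In SAHA against control, 11 of the 20 tested members were higher and 4 lower, beside 32.6% higher and 34.3% lower of all tested genes. In Smarcb1-RE against control, 11 were higher and 6 lower, beside 39.2% and 38.6% of all tested genes. With an absolute log2 fold change of at least 1, 6 members were higher and 1 lower in SAHA (9.85% and 2.35% of all tested genes), and 3 were higher and 4 lower in Smarcb1-RE (16.9% and 6.78%). Lta and Tnfrsf23 reached 10 counts in all libraries of a group only in SAHA, and Tnfrsf25 only in SAHA and Smarcb1-RE, so that these passed the filter through the groups in which they were high. Cd40 reached 10 counts in all libraries of control and of Smarcb1-RE, but its lowest control library had only 10. A separate fit to SAHA and control did not test Cd40, so it too passed through Smarcb1-RE, where it was high. With an absolute log2 fold change of at least 1, the 3 members higher in Smarcb1-RE were Cd40, Lta and Tnfrsf25. The 6 higher in SAHA included Lta, Tnfrsf23 and Tnfrsf25. These counts thus rest wholly or in part on members that passed the filter where they were high. Among the 16 members with at least 10 counts in every library, 8 were higher and 4 lower in SAHA, and 7 were higher and 6 lower in Smarcb1-RE. The 4 members left out, Cd40, Lta, Tnfrsf23 and Tnfrsf25, had all been called higher in Smarcb1-RE. The share of all genes called under this stricter filter is not given here, so these counts have no background beside them. Over the tested members the median log2 fold change was 0.28 with SAHA and 0.62 in Smarcb1-RE, beside 0.00 and 0.01 for all tested genes. These medians include the same 4 members. The comparisons share their control libraries. In the direct comparison, 6 members were higher in Smarcb1-RE than in SAHA and 11 lower, beside 37.7% and 36.8% of all tested genes. With an absolute log2 fold change of at least 1 these were 3 and 7 members, beside 11.5% and 8.21% of all tested genes. Cd40 was among the 3, and Lta and Tnfrsf23 were among the 7.

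**Figure D3:**
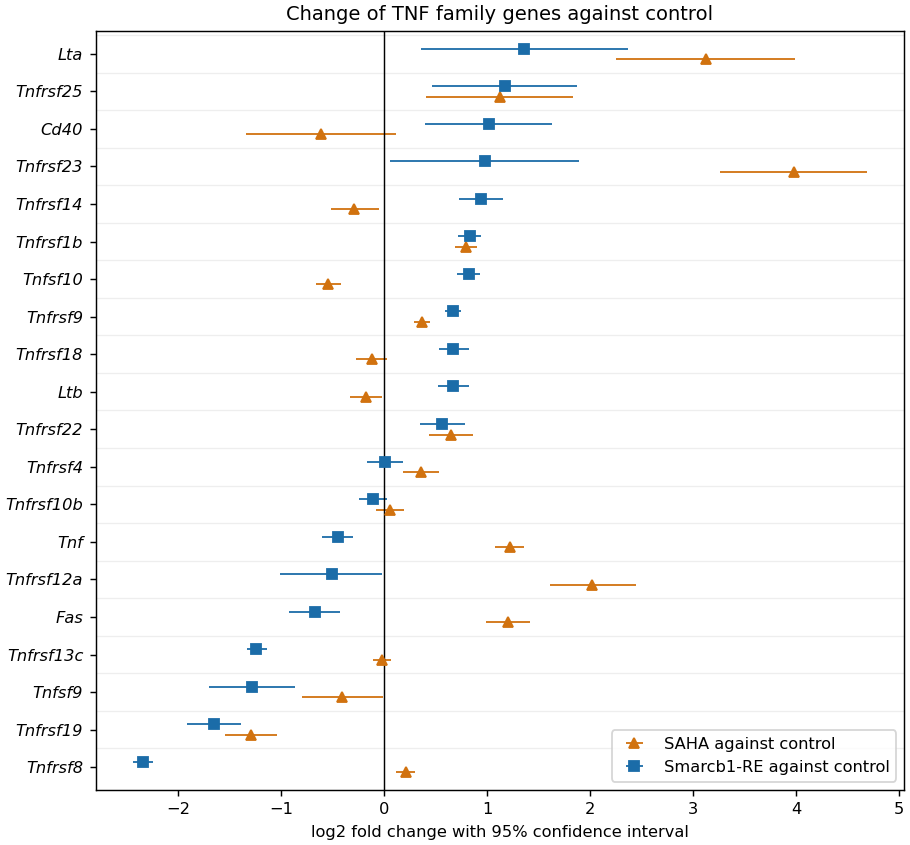
log2 fold change against control (horizontal axis, with 95% confidence interval, 3 libraries per group) of the 20 tested members in SAHA (triangles) and Smarcb1-RE (squares), ordered by the value in Smarcb1-RE. Tnf, Fas and Tnfrsf8 lie to the right of 0 in SAHA and to the left in Smarcb1-RE, while Ltb, Tnfsf10 and Tnfrsf14 do the reverse.

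Among the ligands, Tnf rose in SAHA and fell in Smarcb1-RE. Tnf (ENSMUSG00000024401, chr17:35199381-35202007, minus strand, GRCm38), the proinflammatory cytokine that names the family, had 991, 907 and 999 counts in control, 2094, 2122 and 2284 with SAHA and 693, 604 and 760 in Smarcb1-RE. The 3 groups did not overlap. The level was 40.5 ± 1.96 CPM (SD, n = 3) in control, 94.3 ± 3.86 in SAHA and 29.7 ± 3.02 in Smarcb1-RE. It was 2.33-fold higher in SAHA (log2 fold change 1.22, standard error 0.06, edgeR adjusted p = 9.6e-09) and 1.36-fold lower in Smarcb1-RE (-0.45, standard error 0.07, adjusted p = 6.21e-05). Smarcb1-RE lay 3.17-fold below SAHA (adjusted p = 2.74e-10).

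Lta (ENSMUSG00000024402, chr17:35203165-35205351, minus strand) encodes lymphotoxin alpha, which is secreted as a homotrimer or held at the membrane with lymphotoxin beta. It had 9, 3 and 3 counts in control, 37, 46 and 46 with SAHA and 18, 8 and 12 in Smarcb1-RE. SAHA lay above both other groups in every library, whereas control and Smarcb1-RE overlapped. Lta rose in SAHA with a log2 fold change of 3.12 (standard error 0.40, adjusted p = 1.77e-05), a fitted 8.71-fold difference from a control level close to the 3-count limit. Without control replicate 1, the highest control library for this gene, the value was 3.85, the highest of 2.85 to 3.85 when each library was left out. In Smarcb1-RE the log2 fold change was 1.36 (standard error 0.46, adjusted p = 0.0168), and the call was lost without control replicate 2 (1.09, adjusted p = 0.0686), control replicate 3 (1.08, adjusted p = 0.0688) or Smarcb1-RE replicate 1 (1.02, adjusted p = 0.0897). Leaving out control replicate 1 gave 2.08 in Smarcb1-RE.

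Ltb (ENSMUSG00000024399, chr17:35194439-35196320, plus strand) encodes lymphotoxin beta and had 1400, 1180 and 1176 counts in control, 1085, 1107 and 1015 with SAHA and 1942, 1909 and 1936 in Smarcb1-RE. The Smarcb1-RE libraries lay above all others, and SAHA and control overlapped in CPM. Ltb rose in Smarcb1-RE by a log2 fold change of 0.67 (standard error 0.07, adjusted p = 1.44e-06). In SAHA the log2 fold change was -0.18 (standard error 0.07, adjusted p = 0.0445), and this call was lost without control replicate 1 (-0.08, adjusted p = 0.158), without SAHA replicate 1 (-0.19, adjusted p = 0.0705) or SAHA replicate 3 (-0.13, adjusted p = 0.167), without any 1 of the Smarcb1-RE libraries (adjusted p = 0.0528 to 0.0585), in separate fits (adjusted p = 0.0845) and with at least 10 counts in every library (-0.14, adjusted p = 0.0819). Thus in SAHA the neighbours Tnf and Lta were higher, with Ltb 1.13-fold below its control level. In Smarcb1-RE, Ltb was higher and Tnf between them lower, which the plot of neighbouring genes shows library by library.

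Tnfsf10 (ENSMUSG00000039304, chr3:27317028-27342427, plus strand) encodes TRAIL, a ligand of death receptors. It had 32.6, 36.4 and 36.0 CPM in control, 23.1, 24.0 and 25.0 with SAHA and 62.0, 62.1 and 61.6 in Smarcb1-RE, and no groups overlapped. It fell in SAHA (log2 fold change -0.54, standard error 0.05, adjusted p = 2.01e-06) and rose in Smarcb1-RE (0.82, standard error 0.05, adjusted p = 9.72e-09), a 2.57-fold difference between the treatments (adjusted p = 1.94e-10). Tnfsf9 (ENSMUSG00000035678, chr17:57105325-57107757, plus strand) encodes 4-1BB ligand and had 63, 72 and 66 counts in control, 49, 52 and 45 with SAHA and 31, 21 and 28 in Smarcb1-RE. Its 3 groups did not overlap. Tnfsf9 was 2.43-fold lower in Smarcb1-RE (log2 fold change -1.28, standard error 0.19, adjusted p = 5.34e-05). In SAHA its log2 fold change was -0.41 with a 95% interval from -0.80 to -0.01 and an adjusted p of 0.0653. It shares 192 bases of exon with an antisense gene, Gm11110, that has no row in the table. The kit was directional, but whether strand was used in counting is not given in the sources used here.

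**Figure D4:**
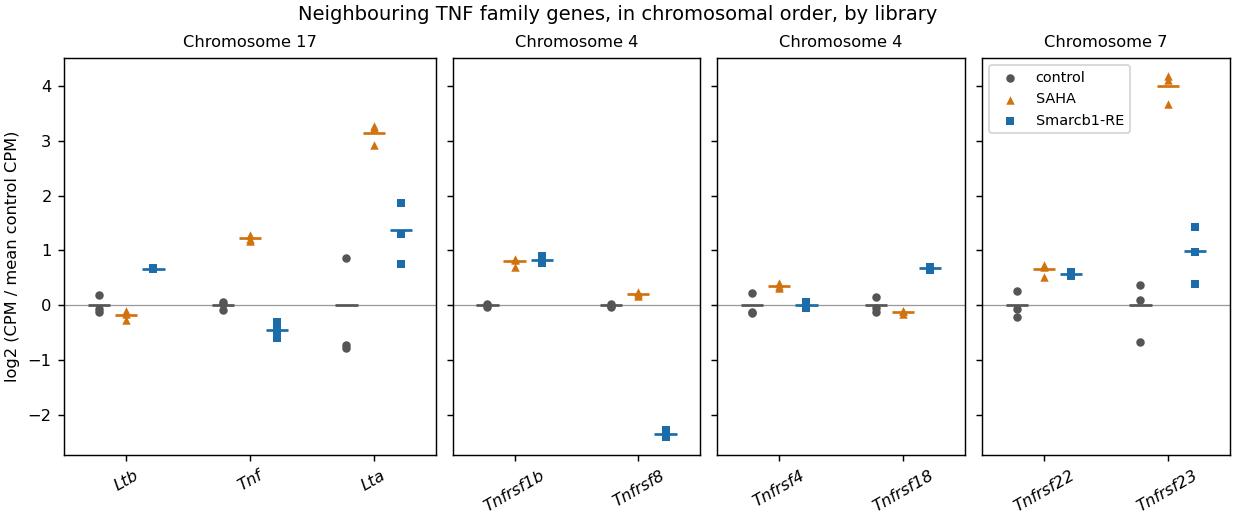
log2 of CPM over the mean control CPM for neighbouring family genes on chromosomes 17, 4 and 7, in chromosomal order, with 1 point per library (circles control, triangles SAHA, squares Smarcb1-RE) and a bar at the group mean. In Smarcb1-RE, Tnfrsf1b lies above and its neighbour Tnfrsf8 below control, and Ltb lies above and its neighbour Tnf below.

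Among the receptors, Tnfrsf8 showed the largest fall of any tested member in Smarcb1-RE. Tnfrsf8 (ENSMUSG00000028602, chr4:145267137-145315164, minus strand) had 2634, 2683 and 2814 counts in control, 3124, 2904 and 3047 with SAHA and 530, 530 and 498 in Smarcb1-RE. The 3 groups did not overlap. The level was 114.0 ± 1.88 CPM (SD, n = 3) in control, 132.0 ± 3.5 in SAHA and 22.5 ± 0.997 in Smarcb1-RE. It was 5.05-fold lower in Smarcb1-RE (log2 fold change -2.34, standard error 0.05, adjusted p = 1.08e-12) and 1.16-fold higher in SAHA (0.21, standard error 0.04, adjusted p = 0.000483). Leaving out any 1 library kept the value in Smarcb1-RE between -2.37 and -2.31. Its neighbour Tnfrsf1b (TNF receptor 2, ENSMUSG00000028599, chr4:145213463-145246870, minus strand) had 77.3, 80.0 and 78.8 CPM in control, 128.0, 140.0 and 142.0 with SAHA and 147.0, 135.0 and 137.0 in Smarcb1-RE. Both treated groups lay above control and overlapped each other. The log2 fold change of Tnfrsf1b was 0.79 in SAHA (standard error 0.05, adjusted p = 3.78e-08) and 0.83 in Smarcb1-RE (standard error 0.05, adjusted p = 9.35e-09). The direct difference was 0.03 with a 95% interval from -0.07 to 0.14 (adjusted p = 0.531), and 0.19 (adjusted p = 0.00296) when scaled by library totals only.

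Of the 3 tested receptors with a death domain, Fas and Tnfrsf25 were called in both treatments against control and Tnfrsf10b in neither. Fas (ENSMUSG00000024778, chr19:34290666-34327772, plus strand), the receptor for Fas ligand, had 154, 140 and 139 counts in control, 330, 307 and 325 with SAHA and 95, 73 and 95 in Smarcb1-RE, without overlap. It rose 2.30-fold in SAHA (log2 fold change 1.20, standard error 0.10, adjusted p = 3.44e-07) and was 1.60-fold lower in Smarcb1-RE (-0.67, standard error 0.11, adjusted p = 0.000111). Tnfrsf25 (ENSMUSG00000024793, chr4:152115934-152120119, plus strand), the receptor for TL1A, had 16, 11 and 9 counts in control, 28, 29 and 19 with SAHA and 33, 19 and 27 in Smarcb1-RE. Its treated groups lay above control and overlapped each other. Its log2 fold change was 1.12 in SAHA (standard error 0.33, adjusted p = 0.00858) and 1.17 in Smarcb1-RE (standard error 0.32, adjusted p = 0.00532), and the 95% interval of the difference between treatments ran from -0.59 to 0.69. Tnfrsf10b, the mouse TRAIL receptor with a death domain, lay at 24.1 ± 2.05 CPM in control, 25.0 ± 0.318 in SAHA and 22.3 ± 0.311 in Smarcb1-RE (SD, n = 3). Its log2 fold change was 0.06 in SAHA (95% interval -0.08 to 0.19, adjusted p = 0.452) and -0.11 in Smarcb1-RE (-0.24 to 0.03, adjusted p = 0.128), which became -0.16 and was called without control replicate 1 (adjusted p = 0.0236). The direct difference of -0.16 (adjusted p = 0.0306) was not called when scaled by library totals only (-0.01, adjusted p = 0.944), with DESeq2 (adjusted p = 0.0614), or without any 1 of SAHA replicates 1 and 3 and the Smarcb1-RE libraries (adjusted p = 0.0571 to 0.0748).

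Tnfrsf22 and Tnfrsf23, which encode receptors that bind TRAIL without a death domain and lie 16.1 kb apart on chromosome 7, were both higher in SAHA. Tnfrsf23 (ENSMUSG00000037613, chr7:143665809-143685872, minus strand) had 6, 5 and 3 counts in control, 58, 77 and 83 with SAHA and 9, 12 and 6 in Smarcb1-RE. SAHA stood clear of both other groups. The log2 fold change in SAHA was 3.98 (standard error 0.33, adjusted p = 3.73e-07), a fitted 15.7-fold difference. In Smarcb1-RE it was 0.98 (standard error 0.42, adjusted p = 0.0496), and this call was lost when any 1 of 7 libraries was left out (control replicates 2 and 3, Smarcb1-RE replicates 1 and 2, and each SAHA library), with values from 0.70 to 1.02 and adjusted p from 0.0503 to 0.22. With the replicate number as a block the adjusted p was 0.0654, and with DESeq2 0.096. Tnfrsf22 had 17.2, 19.1 and 23.8 CPM in control, 28.7, 33.1 and 32.6 with SAHA and 29.0, 30.4 and 29.5 in Smarcb1-RE, so that both treated groups lay above control. Its log2 fold change was 0.65 in SAHA (standard error 0.10, adjusted p = 6.76e-05) and 0.56 in Smarcb1-RE (standard error 0.10, adjusted p = 0.000169). The transcripts of these genes are near copies in part: 26.6% of the 31-base words of Tnfrsf23 also occur in Tnfrsf22 and 25.5% of those of Tnfrsf22 in Tnfrsf23. Over all other genes, the shared part was 26.7% for Tnfrsf23 and 38.3% for Tnfrsf22. How the authors' quantification divided such reads is not given in the sources used here, and the values of both genes are uncertain to that extent. Tnfrsf23 also shares 164 bases of exon with the antisense gene E230032D23Rik, which is not listed.

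Beside Tnfrsf25, described above, the costimulatory receptors on chromosome 4 are Tnfrsf9, Tnfrsf4 and Tnfrsf18. Tnfrsf9 (ENSMUSG00000028965, chr4:150914562-150946102, plus strand) rose in both treatments, by a log2 fold change of 0.37 in SAHA (standard error 0.04, adjusted p = 1.63e-06) and 0.67 in Smarcb1-RE (standard error 0.04, adjusted p = 3.42e-09), and the difference between them of 0.30 was called (adjusted p = 7.22e-06). Tnfrsf4 and Tnfrsf18 lie 9.55 kb apart. Tnfrsf4 had 81.4, 63.4 and 64.2 CPM in control, 88.5, 86.8 and 92.1 with SAHA and 70.4, 67.5 and 72.2 in Smarcb1-RE, so that SAHA lay above the other groups, which overlapped. Its log2 fold change was 0.36 in SAHA (standard error 0.08, adjusted p = 0.00152) and 0.01 in Smarcb1-RE (95% interval -0.17 to 0.18, adjusted p = 0.922). Without control replicate 1, which was the highest control library for this gene, the value in Smarcb1-RE was 0.13 and was called (adjusted p = 0.0143). Tnfrsf18 had 28.8, 25.0 and 23.6 CPM in control, 23.0, 24.1 and 23.9 with SAHA and 41.5, 41.8 and 40.1 in Smarcb1-RE, where Smarcb1-RE stood above the rest. Its log2 fold change was 0.67 in Smarcb1-RE (standard error 0.07, adjusted p = 7.97e-07) and -0.12 in SAHA (95% interval -0.27 to 0.03, adjusted p = 0.134), which became -0.18 and was called without control replicate 3 (adjusted p = 0.0266). Tnfrsf18 shares 414 bases of exon with the antisense gene Gm16008, which has no row in the table.

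Tnfrsf14 (HVEM, ENSMUSG00000042333, chr4:154921933-154928563, minus strand), a receptor for LIGHT that also binds BTLA, had 11.9, 16.6 and 15.8 CPM in control, 12.6, 11.5 and 12.2 with SAHA and 27.1, 29.2 and 28.8 in Smarcb1-RE. Smarcb1-RE lay above all other libraries, and SAHA overlapped control through control replicate 1. It rose in Smarcb1-RE with a log2 fold change of 0.94 (standard error 0.10, adjusted p = 1.58e-06). In SAHA the value was -0.29 (standard error 0.11, adjusted p = 0.0303), and this call was lost without control replicate 2 or 3 (-0.20 and -0.23) or SAHA replicate 2 or 3 (-0.25 and -0.29), with adjusted p from 0.0645 to 0.142, and in separate fits (adjusted p = 0.0628). The direct difference was 2.34-fold (adjusted p = 1.82e-07).

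Tnfrsf13c and Tnfrsf19 were the other receptors whose log2 fold change in Smarcb1-RE was below -1. Tnfrsf13c (ENSMUSG00000068105, chr15:82221743-82224369, minus strand), the BAFF receptor, best known from B cells, had 54.6, 56.0 and 56.4 CPM in control, 54.3, 55.1 and 55.5 with SAHA and 23.9, 24.2 and 22.7 in Smarcb1-RE. Smarcb1-RE lay below all other libraries, and SAHA overlapped control. It was 2.36-fold lower in Smarcb1-RE (log2 fold change -1.24, standard error 0.04, adjusted p = 9.25e-11), with a difference of -0.02 in SAHA (95% interval -0.11 to 0.07, adjusted p = 0.691). The summed B-cell markers were higher in Smarcb1-RE, as given above, and their part in this result was not tested. Tnfrsf19 (TROY, ENSMUSG00000060548, chr14:60963875-61046490, minus strand) had 12.5, 14.1 and 12.4 CPM in control, 4.94, 4.95 and 6.03 with SAHA and 3.50, 4.60 and 4.31 in Smarcb1-RE, and the 3 groups did not overlap. It was the only tested member called lower in both treatments, 2.44-fold in SAHA (log2 fold change -1.29, standard error 0.12, adjusted p = 8.79e-07) and 3.14-fold in Smarcb1-RE (-1.65, standard error 0.12, adjusted p = 5.49e-08). The direct difference of -0.36 (adjusted p = 0.0245) was not called without SAHA replicate 3 or Smarcb1-RE replicate 1 (-0.26 each), nor when scaled by library totals only (-0.20, adjusted p = 0.181).

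Tnfrsf12a was low in control and Smarcb1-RE, and Cd40 was low in every group. Tnfrsf12a (ENSMUSG00000023905, chr17:23675445-23677468, minus strand), the TWEAK receptor Fn14, had 22, 24 and 22 counts in control, 81, 87 and 100 with SAHA and 15, 17 and 14 in Smarcb1-RE, without overlap. It rose 4.07-fold in SAHA (log2 fold change 2.02, standard error 0.19, adjusted p = 1.32e-06). In Smarcb1-RE its log2 fold change was -0.51 (95% interval -1.01 to -0.02, adjusted p = 0.0727). Cd40 (ENSMUSG00000017652, chr2:165055627-165072948, plus strand), a receptor of antigen-presenting cells, had 14, 11 and 10 counts in control, 9, 5 and 8 with SAHA and 23, 24 and 22 in Smarcb1-RE, where Smarcb1-RE stood above the rest. It rose 2.02-fold in Smarcb1-RE (log2 fold change 1.02, standard error 0.28, adjusted p = 0.0054), while the value in SAHA was -0.61 (95% interval -1.34 to 0.12, adjusted p = 0.148). The direct difference was 3.09-fold (adjusted p = 0.000341). Cd40 passed the filter through Smarcb1-RE, where it was high.

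Set side by side by ligand and receptor, both partners were tested for few pairs. Tnf was present with Tnfrsf1b, while Tnfrsf1a, the TNF receptor with a death domain, was at 0 in every library. In SAHA both Tnf and Tnfrsf1b were higher, whereas in Smarcb1-RE Tnf was lower and Tnfrsf1b higher. Lta and Ltb were present, while Ltbr, the receptor of their heterotrimer, had at most 1 count. Tnfrsf1b, which was also set beside Lta, was present at a mean of 78.7 CPM in control. Both Lta and Tnfrsf1b were called higher in both treatments, Lta with the limits given for Smarcb1-RE. For 4-1BB, the ligand Tnfsf9 was lower and the receptor Tnfrsf9 higher in Smarcb1-RE. In SAHA Tnfrsf9 was higher too, and Tnfsf9 was not called. For TRAIL, the ligand Tnfsf10 was lower in SAHA and higher in Smarcb1-RE, while Tnfrsf22 was higher in both, Tnfrsf23 was higher in both with the limits given for Smarcb1-RE, and Tnfrsf10b was called in neither. The receptors Fas, Cd40, Tnfrsf4, Tnfrsf8, Tnfrsf12a, Tnfrsf13c, Tnfrsf14, Tnfrsf18 and Tnfrsf25 passed the filter. The ligands set beside them here, Fasl, Cd40lg, Tnfsf4, Tnfsf8, Tnfsf12, Tnfsf13b, Tnfsf14, Tnfsf18 and Tnfsf15, did not pass the filter. Neither Cd70 nor Cd27 passed it, nor did Tnfsf11 with Tnfrsf11a and Tnfrsf11b, nor Tnfsf13 with Tnfrsf13b and Tnfrsf17.

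Genes that act next to these receptors were examined as a list of 43, made of relatives outside the naming rule, TRAF and death-domain adaptors, caspases, inhibitors of apoptosis, ubiquitin and NF-kB pathway enzymes and shedding proteases. Of these, 39 were tested. Ltbr, Ngfr, Edar and Eda2r failed the filter. In SAHA, 17 were higher and 12 lower, and in Smarcb1-RE 16 were higher and 17 lower, beside the 32.6% and 34.3%, and 39.2% and 38.6%, of all tested genes. The Smarcb1-RE counts were 22 higher and 12 lower when scaled by library totals only. Under that scaling, 61.0% of the calls over all tested genes were higher in Smarcb1-RE, beside 50.4% with TMM factors. The median log2 fold change of the list was 0.09 in SAHA and 0.05 in Smarcb1-RE. With an absolute log2 fold change of at least 1, only Eda (higher) and Fadd (lower) were called in SAHA. Each was 2.56% of the tested list, beside 9.85% higher and 2.35% lower of all tested genes. Fadd, the adaptor between death receptors and caspase-8, had 525, 531 and 541 counts in control, 220, 188 and 175 with SAHA and 397, 367 and 396 in Smarcb1-RE, with no overlap. It fell 2.64-fold in SAHA (log2 fold change -1.40, standard error 0.08, adjusted p = 1.47e-08) and was 1.33-fold lower in Smarcb1-RE (-0.41, adjusted p = 0.000168). Fadd was thus lower in SAHA, where Fas was higher. Eda, the ligand ectodysplasin, rose in SAHA with a log2 fold change of 1.33 (standard error 0.22, adjusted p = 0.000163).

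In Smarcb1-RE, 4 genes of this list passed both thresholds as higher and 2 as lower, beside 16.9% and 6.78% of all tested genes. Of these genes of the list, 5 are described. Tradd, an adaptor of TNF receptor 1 and DR3, was 2.20-fold lower (-1.13, standard error 0.06, adjusted p = 2.18e-09). Map3k5, a MAP kinase kinase kinase of the stress response, rose by a log2 fold change of 1.92 (standard error 0.17, adjusted p = 2.98e-07). Mlkl, which executes necroptosis, rose by 1.67 (standard error 0.14, adjusted p = 1.67e-07), Traf5 by 1.15 (standard error 0.14, adjusted p = 9.02e-06) and the ubiquitin ligase Birc2 by 1.08 (standard error 0.05, adjusted p = 1.65e-09).

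Position on chromosome 4 was set beside the values, since 9 members lie there and 7 of them were tested. In Smarcb1-RE these 7 had a median log2 fold change of 0.67, the 13 tested members elsewhere one of -0.11, the 778 tested protein-coding genes of the whole chromosome one of 0.37, and the 11266 on other autosomes one of -0.02. In SAHA the medians were 0.36, 0.06, -0.04 and -0.01. Tnfrsf25, which is among the 7, passed the filter only through SAHA and Smarcb1-RE, where it was high. Among the 13, Cd40, Lta and Tnfrsf23 likewise passed through groups in which they were high. Within the chromosome, Tnfrsf9, Tnfrsf14, Tnfrsf18, Tnfrsf1b and Tnfrsf25 were higher in Smarcb1-RE, Tnfrsf4 lay at 0.01 and Tnfrsf8 at -2.34. These are descriptions without a test, and the part of the shift of the whole chromosome in the values of these 7 members was not tested.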

How the data were processed

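RNA-seq of T15 cells was analysed in 9 libraries (3 control, 3 SAHA, 3 Smarcb1-RE), from single-end reads of directional libraries. The authors deposited 1 table of estimated counts per Ensembl gene, neither normalized nor pooled, in which 52.4% of the values above 0 were not whole. The submitters' processing notes name FastQC 0.11.8, MultiQC 1.7, Salmon 0.14.1, DESeq2 1.22.2 and GRCm38 without their roles. Names, coordinates and exon lengths were taken from GENCODE M21 (GRCm38), which held 99.5% of the 35288 identifiers and 99.9% of the counts. Reads of near-identical copies are divided by such estimation, which makes their values less certain.

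Counts were rounded and tested in R 4.3.3 with edgeR 4.0.16 (TMM, glmQLFit and glmQLFTest in 1 fit to 3 groups, filterByExpr at a minimum count of 10, Benjamini-Hochberg adjustment, adjusted p under 0.05). Each standard error is the size of the log2 fold change over the root of its F statistic. The members and lists were chosen with earlier results of these data known. Members with a call and an absolute log2 fold change of at least 1 in any comparison were described in full by library, the other tested members by value and some of them also by library, and genes of the signalling list were named by the same thresholds against control. Some genes that these lists hold are not reported here. Alternatives were DESeq2 1.42.0, median-ratio factors, library totals, other filters, separate fits, a replicate block and leaving out each library. Calculations were tested on simulated data. Deviations of libraries with the same replicate number did not go together (their correlation over genes averaged -0.003, and that of libraries with other numbers 0.002), so the numbers were not taken as pairs. A level of 3 counts, 0.123 to 0.133 CPM, was taken as the smallest detectable, for counting error only. Motifs were searched and sequences drawn with Python 3.11.15.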

Additional observations from a re-analysis of the deposited data

How the results depend on the processing

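Of 1281 values of the 20 tested members and 7 named signalling genes under the alternatives, 1223 kept their direction and their side of the threshold, 38 were no longer called, 5 became called and 15, none called before or after, changed sign. These were Tnfrsf13c in SAHA with at least 10 counts in every library (0.01), Tnfrsf10b in Smarcb1-RE and Tnfrsf22 between the treatments with library totals only (0.05 and 0.07), Tnfrsf4 in Smarcb1-RE without a filter (-0.02) and, on leaving out 1 library, Tnfrsf4 in Smarcb1-RE (-0.07 to 0.13), Mlkl in SAHA (-0.04 to 0.21), and between the treatments Tnfrsf1b (-0.02 to 0.06) and Tnfrsf25 (-0.15 to 0.22). With an absolute log2 fold change of at least 1, members higher and lower numbered 6 and 1 in SAHA, 3 and 4 in Smarcb1-RE, and 3 and 7 in Smarcb1-RE against SAHA. Signalling genes numbered 1 and 1, 4 and 2, and 3 and 2 in the same order. Of all tested genes, 9.85% and 2.35%, 16.9% and 6.78%, and 11.5% and 8.21% were called by this rule. The member counts include Cd40, Lta, Tnfrsf23 and Tnfrsf25, which passed the filter through groups in which they were high. With at least 10 counts in every library, 7 of 16 members were higher in Smarcb1-RE than in control. The 4 members that this filter left out, Cd40, Lta, Tnfrsf23 and Tnfrsf25, had all been called higher there. The share of all genes called under this filter is not given here. Separate fits to each pair of groups left 2 members lower in SAHA, and the share of all genes called in these fits is not given here. Scaling by library totals only left 11 signalling genes lower in Smarcb1-RE than in SAHA. It moved the median log2 fold change of all tested genes from 0.01 to 0.17 in Smarcb1-RE against control and from 0.02 to 0.18 against SAHA, and the share of calls that were higher from 50.4% to 61.0% and from 50.6% to 62.1%. The median of the chromosome 4 members in Smarcb1-RE was 0.83 with library totals only, 0.65 without a filter and 0.73 with at least 10 counts in every library.

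Leaving out each library gave 2 to 4 members lower in SAHA, the lowest count without SAHA replicate 3, and 9 to 12 higher and 6 to 7 lower in Smarcb1-RE. It gave medians of 0.65 to 0.75 for the chromosome 4 members, the highest without control replicate 1. Signalling genes higher in Smarcb1-RE numbered 12 to 16. The shares of all genes called on leaving out each library are not given here, so these counts have no background beside them. Tnfsf9 was called lower in SAHA with at least 10 counts in every library (-0.37, adjusted p = 0.0454).

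With the replicate number as a block, members higher and lower numbered 11 and 4 in SAHA, 10 and 6 in Smarcb1-RE, and 6 and 11 in Smarcb1-RE against SAHA. Among members the block changed the call of Tnfrsf23 in Smarcb1-RE only (0.97, adjusted p = 0.0654); signalling genes numbered 17 and 12, 16 and 16, and 15 and 19, and the chromosome 4 median was 0.68. No share of all genes called with the block is given here, so these counts have no background beside them. The replicate numbers are not taken to pair the samples. Depth limits Lta, Tnfrsf23, Tnfrsf25 and Cd40, which had under 10 counts in some libraries. Causes of these shifts were not tested where none is given.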
